A study of Homo sapiens with 12 samples.

Results

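HCT116 colon cancer cells that ectopically expressed the CD44v6 isoform were compared with parental HCT116 cells over all genes. The 4 libraries, 2 CD44v6-OE and 2 parental, were chosen by the headers of the count columns and by their labels, out of 12 libraries in the series, and 17335 genes were tested. Cells of HCT116 and of SW480, another established line from colon cancer, had been transfected with CD44s or CD44v6 plasmids and selected with Geneticin, and polyA RNA of OE and parental cells was sequenced with paired ends. The CD44v6-OE cells were pools, as the column headers state, and were set against parental HCT116 cells that carried no plasmid. Both groups were grown in standard culture conditions. None of the 12 libraries was labelled as an empty vector or as selected without CD44, so expression of the isoform and transfection with selection cannot be told apart. The labels do not say that the 2 libraries of a group came from separate cultures, so the spread between them may be technical.

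CD44 is a surface receptor for hyaluronan, and alternative splicing adds or skips a block of variant exons in its extracellular stem. Isoforms that hold exon v6 can act as co-receptors for growth factors, while the standard isoform CD44s skips every variant exon. Many of the genes described here belong to innate immune programmes. Type I and type III interferons are secreted when sensors detect foreign RNA or DNA, and they act through their receptors on a large set of interferon-stimulated genes, many of which block virus replication. NFκB is a family of transcription factors held back by inhibitors such as IκBα, and its targets include chemokines, anti-apoptotic proteins and its own inhibitors.

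The introduced gene was examined first. The v6 exon, shown because it is the part of CD44 that sets the 2 isoforms apart, is given with the footprints of the study's CD44v6 primers in capitals (chr11:35226059-35226187, + strand, GRCh37, 129 bases).
CD44 v6 exon: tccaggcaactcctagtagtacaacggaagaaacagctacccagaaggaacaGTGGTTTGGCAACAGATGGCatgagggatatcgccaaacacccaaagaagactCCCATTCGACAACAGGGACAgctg
The count of CD44 sums every isoform over chr11:35160429-35253949 and does not resolve this exon. The study assayed CD44v6 itself in its OE cells, by RT-qPCR relative to constitutive CD44 exons and by western blot. A total count of CD44 does not test that result. CD44 was at 509 and 524 CPM (counts scaled to the library total) in CD44v6-OE, against 538 and 526 CPM in parental cells. Both CD44v6-OE values lay below both parental values, a separation that 4289 of 17335 tested genes showed. CD44 had a log2 fold change of −0.09 ± 0.12 (± values of fold changes are SE throughout) and an adjusted p of 0.811 in edgeR's quasi-likelihood test. CD44-AS1, a long noncoding RNA annotated on the opposite strand of the same locus, had 97 and 119 counts in CD44v6-OE, against 0 and 0 in parental cells. Its level was thus at least 17.6-fold higher, taking 6 counts (3 read pairs) per library as what a count of 0 allows, and the difference was called (adjusted p = 0.00933), a call lost only without parental 2 (0.114) among the omissions of 1 library. Of its 2 exons, the one at chr11:35231890-35232321 shares 0 bases with CD44 exons, and the one at chr11:35236378-35236532 shares 84 of its 155 bases. Counting was set to use strand, and which of the exons the counts came from is not recorded in the tables.

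The 4 libraries held 51885360 to 52811889 counts, in a series range of 43102156 to 52811889. All 10 markers of colon epithelium were detected, with a summed level of 7889 and 7053 CPM in CD44v6-OE and of 7201 and 8820 CPM in parental cells. KRT8 and KRT18 made up most of it, while VIL1 stayed at or under 9 counts. Leukocyte markers summed to 1.45 and 2.04 CPM in CD44v6-OE and to 0.95 and 0.72 CPM in parental cells, with PTPRC, CD3E, MS4A1 and NKG7 at 0 in all 4 libraries. Endothelial markers summed to 1.24 and 1.35 CPM in CD44v6-OE, against 1.03 and 0.66 CPM in parental cells. Neuron markers, mostly SYT1, summed to 53.4 and 54.4 CPM in CD44v6-OE and to 48.7 and 56.1 CPM in parental cells. Fibroblast markers summed to 35.2 and 31.8 CPM in CD44v6-OE and to 19.3 and 13.8 CPM in parental cells, nearly all of it from COL1A1, with LUM at 0. In bulk RNA, fewer cells of a kind and less RNA per cell cannot be told apart. The CD44v6-OE libraries lay close together, with an SD of 0.136 for the log2 difference between them over better expressed genes, against 0.241 for the parental pair. The HCT116 CD44s-OE pair stood further apart at 0.442. It entered the test through its spread, the low-count filter and the normalisation.

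Expression differed in one direction far more often than in the other. With all 6 HCT116 libraries in the fit, 128 genes were called higher in CD44v6-OE than in parental cells (0.738% of those tested) and 7 were called lower (0.0404%), where a call required a log2 fold change beyond 1.5 and an adjusted p (Benjamini-Hochberg) under 0.1. At an unadjusted p under 0.05 there were 1933 genes, and the median log2 fold change over all tested genes was 0.00. When only the 4 libraries compared were fitted, 333 genes were called higher (1.99% of 16711) and 19 lower (0.114%). Both fits shared 126 of the higher and all 7 of the lower genes, and 215 genes tested in both fits and 4 not tested in the 6-library fit were called only without the CD44s-OE pair. The single libraries mattered to the 6-library calls: of the 135 called genes, 33 and 34 were still called without CD44v6-OE 1 or CD44v6-OE 2, 25 without parental 1 and 7 without parental 2. In the 4-library fit, 111, 116, 125 and 124 of them were still called under the same omissions. These omissions from the 4-library fit, here and for the gene lists, were chosen after seeing the data and leave 1 library in a group, which is assumed to vary like the pair of the other group. PLAAT4, BIRC3, SAMD9, DDX60 and TMEM200A were called in each of the 21 alternative fits, at the same thresholds.

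Most genes called higher were scarce in parental cells, which the calls themselves favour. A call required a log2 fold change beyond 1.5 over these same parental values. The low-count filter also admits genes with few or no parental counts where other libraries express them. The shares below describe the called genes and are no separate result. Of the 128, 85 (66.4%) had a parental mean under 1 CPM, against 25.2% of all tested genes, and the median parental level was 0.467 CPM, against 11.1 CPM. In 10 of them both parental libraries had 0 counts, and in 17 the parental pair had 1 to 3 counts together. The log2 fold change was over 5 in 28 genes, from 3 to 5 in 30, from 2 to 3 in 35 and from 1.5 to 2 in 35. Protein-coding genes numbered 107 of the 128 and long noncoding RNAs 12. Just inside the thresholds lay PSMB10 and ANO9, both at a log2 fold change of 1.51, and SLC6A12 and LEMD1, with adjusted p-values of 0.0991 and 0.0941. Just outside lay MYO15A and SEMA3A, at 1.499 and 1.49, and SERPINF1 and MMEL1, with adjusted p-values of 0.103 and 0.104.

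**Figure D1:**
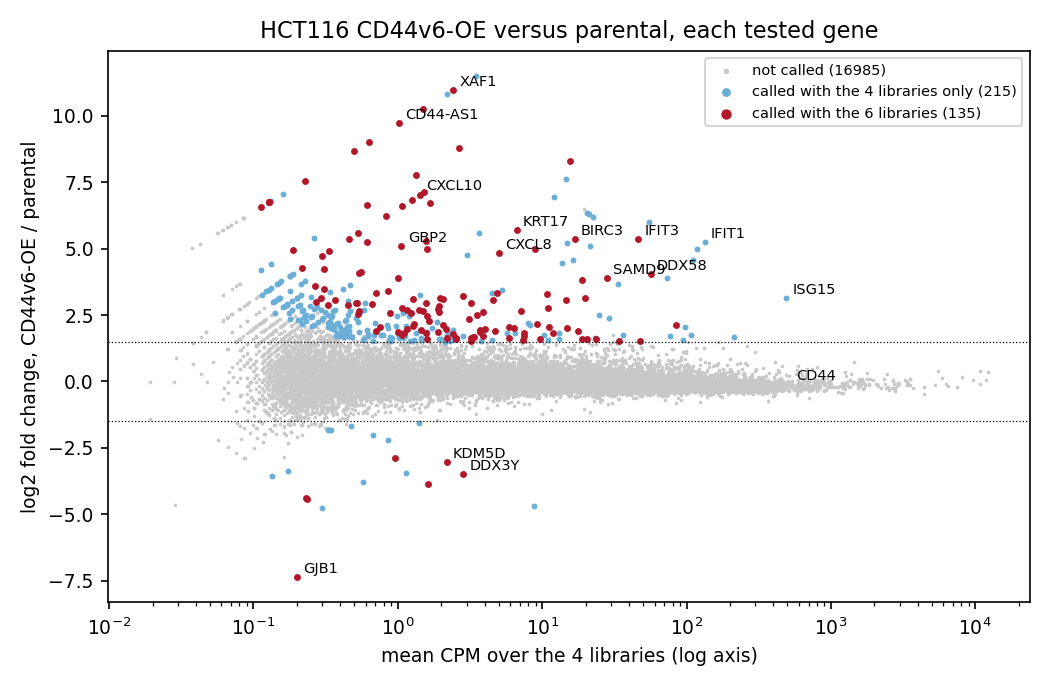
Log2 fold change of CD44v6-OE over parental HCT116 cells (y axis) against the mean level of each of the tested genes over the 4 libraries in CPM (x axis, log scale), with dotted lines at the fold threshold. Red points are the 135 genes called with 6 libraries in the fit, blue points the 215 called only with the 4 compared libraries and grey points the 16985 not called. The called genes lie mostly above the upper line and at low mean levels, and the fitted values of genes with 0 parental counts, such as XAF1, are no bounds.

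Interferon-stimulated genes had the highest median fold change of the gene lists examined. On a list of 49 antiviral interferon-response genes, 47 were tested and 46 had a positive log2 fold change, against 8690 of 17335 tested genes. Their median log2 fold change was 3.15 with genes at 0 counts set to their bound (3.25 as fitted), against 0.00 over all tested genes. Of the 47, 10 were called with the 6 libraries and 35 with the 4 compared libraries, and DESeq2 with 6 libraries called 30. Of all tested genes, 0.738% were called higher with 6 libraries and 1.99% with 4, the background also for the parts of this list below. The summed level of the list was 4338 and 4257 CPM in CD44v6-OE, 6978 and 1968 CPM in CD44s-OE and 1209 and 1419 CPM in parental cells. Both CD44v6-OE sums lay between the sums of the CD44s-OE pair and well above the parental ones.

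Interferon ligands were measurable only in traces in parental cells. These genes were chosen after their values were seen. IFNB1, the gene of interferon β, was at 0.782 and 1.20 CPM in CD44v6-OE, against 0 and 0 CPM in parental cells, at least 8.55-fold higher and called (adjusted p = 0.0479), though not without any one of the 4 libraries (0.141 to 0.361). Among the type III interferon genes, IFNL1 was at 42.4 and 41.0 CPM in CD44v6-OE and at 0.114 and 0.938 CPM in parental cells. IFNL2 was at 25.7 and 22.0 CPM in CD44v6-OE and at 0 and 0.391 CPM in parental cells. IFNL3 was at 30.4 and 27.9 CPM in CD44v6-OE and at 0.057 and 0.235 CPM in parental cells. These 3 genes are close copies of each other, so reads may have been shared or lost among them. None of the 3 was called with 6 libraries by edgeR (adjusted p = 0.375, 0.341 and 0.260), with CD44s-OE libraries as far apart as 60.1 and 5.07 CPM for IFNL1, and all 3 were called with the 4 libraries (0.0378, 0.0263 and 1.53e-09). Without CD44v6-OE 1 or 2 that call was lost for IFNL1 and IFNL2 (0.549 to 0.568) and kept for IFNL3. For the receptor genes the log2 fold changes were −0.05 ± 0.15 for IFNAR1, 0.06 ± 0.26 for IFNAR2 and 0.11 ± 0.18 for IFNLR1, with adjusted p-values of 0.865 or more.

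Of 4 tested sensors of foreign RNA, 2 were called with 6 libraries and 4 with the 4 compared. DDX58, which encodes the cytosolic RNA sensor RIG-I, was at 105 and 108 CPM in CD44v6-OE, against 5.86 and 7.00 CPM in parental cells (log2 fold change 4.05 ± 0.41, adjusted p = 0.0129). TLR3, the endosomal receptor for double-stranded RNA, was at 2.94 and 2.49 CPM in CD44v6-OE and at 0.494 and 0.625 CPM in parental cells (2.27 ± 0.37, adjusted p = 0.0301). DDX60, a helicase that aids RIG-I signalling and was picked after its values were seen, was at 35.9 and 34.7 CPM in CD44v6-OE, against 2.74 and 2.31 CPM in parental cells (3.81 ± 0.26, adjusted p = 0.000688). In all 3 the CD44v6-OE pair was tight and clear of the parental pair. IFIH1, the gene of the long-RNA sensor MDA5, was at 62.7 and 61.5 CPM in CD44v6-OE and at 4.68 and 5.12 CPM in parental cells, and was called only with the 4 libraries (adjusted p = 0.197 and, with 4 libraries, 1.92e-10).

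Among the IFIT and IFI effectors, 3 of 13 were called with 6 libraries and 9 with the 4 compared. IFIT3, whose product binds IFIT1 to block translation of viral RNA, was at 90.9 and 90.5 CPM in CD44v6-OE, against 1.75 and 2.66 CPM in parental cells (log2 fold change 5.36 ± 0.64, adjusted p = 0.0385). IFI44 was at 30.3 and 31.9 CPM in CD44v6-OE and at 0.038 and 0.156 CPM in parental cells (8.30 ± 1.23, adjusted p = 0.0874). IFI44L, its neighbour and relative, was at 2.86 and 3.09 CPM in CD44v6-OE, against 0 and 0 CPM in parental cells, at least 25.7-fold higher (adjusted p = 0.0407). IFIT1, which binds viral RNA with an unmethylated cap, had a similar pattern without being called with 6 libraries. It was at 265 and 255 CPM in CD44v6-OE, 231 and 39.2 CPM in CD44s-OE and 5.19 and 8.40 CPM in parental cells. The fold change of 5.26 on the log2 scale had an SE of 1.09 with 6 libraries (adjusted p = 0.247) and of 0.21 with 4 (adjusted p = 1.64e-06). The larger SE came with the fit that held the CD44s-OE pair, whose libraries stood far apart for this gene.

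Other effectors showed the same split, with 5 of 24 called with 6 libraries and 20 with 4. SAMD9, an antiviral restriction factor, was at 52.0 and 53.2 CPM in CD44v6-OE, against 3.42 and 3.63 CPM in parental cells, with the lowest adjusted p of all 17335 genes (3.90 ± 0.23, adjusted p = 0.000259). SAMD9L, its paralog, had 2.06 and 2.17 CPM in CD44v6-OE and 0.038 and 0 CPM in parental cells, a ratio of 110 with a 95% counting interval of 19.3 to 4373 (adjusted p = 0.0126). Ratios of this kind were taken in read pairs, with the counts of each library divided by 2 and rounded up, so a single parental count stands for 1 pair and the ratio then lies below that of the CPM. XAF1, which promotes apoptosis by opposing XIAP, was at 4.31 and 5.37 CPM in CD44v6-OE and at 0 and 0 CPM in parental cells, at least 41.8-fold higher (adjusted p = 0.0931). ISG20, an RNA exonuclease, and PARP14, an ADP-ribosyltransferase, also rose, by 3.15 ± 0.50 (adjusted p = 0.052) and 1.62 ± 0.27 (adjusted p = 0.0315) on the log2 scale. ISG15, a ubiquitin-like protein and per length the most abundant transcript of the list in CD44v6-OE, averaged 1013 RPKM (reads scaled by library size and gene length) in CD44v6-OE and 114 RPKM in parental cells. It was at 911 and 845 CPM in CD44v6-OE, against 88.1 and 110 CPM in parental cells, and was called only with the 4 libraries (3.15 with an SE of 0.59 and adjusted p = 0.163, and an SE of 0.12 and adjusted p = 1.19e-09 with 4).

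Several antiviral genes had clear expression in CD44v6-OE and few or no parental counts and were still not called with 6 libraries. RSAD2, the gene of viperin, was at 7.34 and 6.68 CPM in CD44v6-OE, against 0 and 0 CPM in parental cells, at least 60.6-fold higher (adjusted p = 0.441 and, with 4 libraries, 5.26e-08). MX2, an antiviral GTPase, was at 4.44 and 4.30 CPM in CD44v6-OE and at 0 and 0 CPM in parental cells, at least 37.8-fold higher (adjusted p = 0.525 and, with 4 libraries, 4.16e-07). OAS1, which makes the activator of RNase L, was at 39.4 and 41.4 CPM in CD44v6-OE, 90.2 and 2.44 CPM in CD44s-OE and 0.190 and 0.801 CPM in parental cells. Of 6 regulators 0 were called with 6 libraries by edgeR, with 3 at an unadjusted p under 0.05 and 1 called by DESeq2, and 2 were called with 4. With edgeR and 6 libraries, 0 of 6 lies near the 0.738% called higher over all tested genes. IRF7, the factor that amplifies interferon transcription, was at 48.2 and 49.4 CPM in CD44v6-OE and at 9.71 and 8.72 CPM in parental cells. JAK1, the kinase on the interferon receptors, was at 60.9 and 62.0 CPM in CD44v6-OE and at 72.3 and 67.6 CPM in parental cells.

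The number of interferon calls depended on the libraries that were fitted. The absolute log2 difference between the 2 libraries of a group had a median of 0.07 over the 47 genes in CD44v6-OE, 1.98 in CD44s-OE and 0.30 in parental cells, and it exceeded 1 in 0, 37 and 4 genes (0.1 CPM added before taking logs). The median SE of the log2 fold change was 0.766 with 6 libraries and 0.168 with 4. Without CD44v6-OE 1 or CD44v6-OE 2, 3 of the 10 calls were kept (SAMD9, SAMD9L and DDX58 without CD44v6-OE 1). Without parental 1, SAMD9 and SAMD9L were kept, and without parental 2 only SAMD9, and the highest adjusted p among the 10 ranged from 0.329 to 0.683 over these omissions. Of the 35 calls with 4 libraries, 31 were kept without CD44v6-OE 1 or 2 and 33 without parental 1 or 2.

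**Figure D2:**
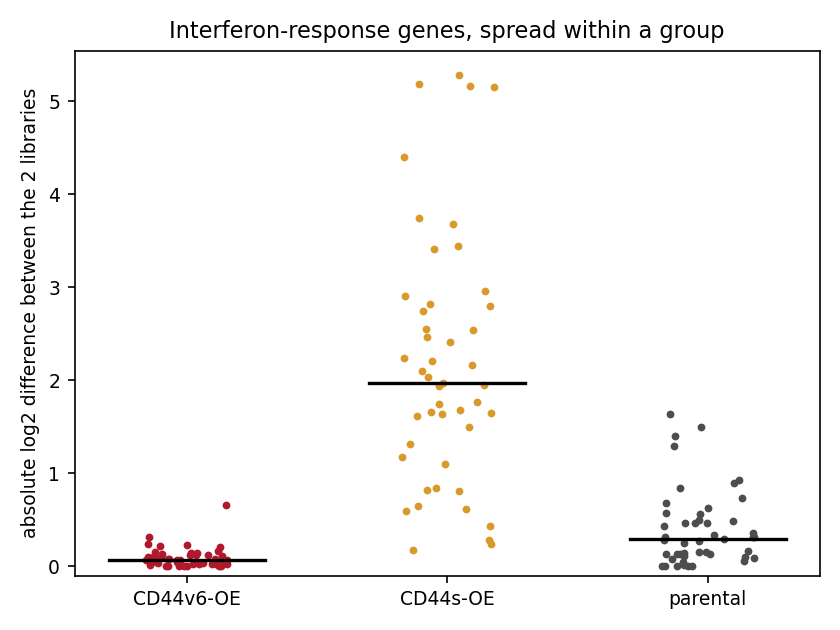
Absolute log2 difference between the 2 libraries of each HCT116 group (y axis, 0.1 CPM added) for 47 interferon-response genes, with 1 point a gene and a black bar at the median. The medians are 0.07 in CD44v6-OE, 1.98 in CD44s-OE and 0.30 in parental cells.

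Promoters of the genes that rose were searched for 2 motifs, as a description only. The window ran from 250 bases before to 50 after the annotated start (RefSeq, GRCh38.p14), and the motifs were the consensus NFκB site and the core of the interferon-stimulated response element (ISRE), GAAANNGAAA, on either strand. Promoters were found for 84 of the 128 genes called higher and for 11730 of the tested genes. The NFκB consensus matched 18 of the 84 (21.4%), against 6.87% of all promoters, and the ISRE core 19 of the 84 (22.6%), against 2.8%. On the interferon list the ISRE core matched 22 of 37 promoters (59.5%) and the NFκB consensus 6 (16.2%). The NFκB list had 11 of 25 (44%) for the NFκB consensus and 1 (4.0%) for the ISRE core, and the chemokine list 8 of 12 (66.7%) and 1 (8.33%). These lists hold many genes already known as targets of interferon or NFκB, so an excess of matches in them follows from that choice. Similar promoters of related genes, such as CXCL1 and CXCL2, were counted separately. A match describes letters in a window and does not show that a factor binds there. The bases before the start of 5 called genes follow, chosen to show each kind of match, with matches in capitals.
IFNB1 promoter, chr9:21077943-21078192, − strand: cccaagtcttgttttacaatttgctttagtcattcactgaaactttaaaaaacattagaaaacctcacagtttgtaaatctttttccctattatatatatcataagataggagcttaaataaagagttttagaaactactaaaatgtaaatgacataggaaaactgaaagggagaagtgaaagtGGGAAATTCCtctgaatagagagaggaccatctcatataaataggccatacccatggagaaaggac
CXCL10 promoter, chr4:76023498-76023747, − strand: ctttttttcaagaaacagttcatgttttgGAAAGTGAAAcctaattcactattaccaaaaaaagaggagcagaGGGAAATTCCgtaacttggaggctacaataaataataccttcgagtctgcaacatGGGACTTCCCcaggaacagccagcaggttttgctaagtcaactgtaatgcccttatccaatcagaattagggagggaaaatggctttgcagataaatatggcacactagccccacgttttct
BIRC3 promoter, chr11:102317234-102317483, + strand: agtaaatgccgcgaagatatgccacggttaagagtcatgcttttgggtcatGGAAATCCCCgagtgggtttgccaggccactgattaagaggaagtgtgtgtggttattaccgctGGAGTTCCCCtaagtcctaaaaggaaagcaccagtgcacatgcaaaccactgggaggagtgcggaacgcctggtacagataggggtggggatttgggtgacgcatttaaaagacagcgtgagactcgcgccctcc
TNFAIP3 promoter, chr6:137867009-137867258, + strand: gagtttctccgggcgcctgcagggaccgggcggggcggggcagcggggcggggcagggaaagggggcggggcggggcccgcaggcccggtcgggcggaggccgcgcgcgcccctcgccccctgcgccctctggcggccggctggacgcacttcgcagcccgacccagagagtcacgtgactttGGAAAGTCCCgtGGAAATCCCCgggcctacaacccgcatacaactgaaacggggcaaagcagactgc
IFIT3 promoter, chr10:89327747-89327996, + strand: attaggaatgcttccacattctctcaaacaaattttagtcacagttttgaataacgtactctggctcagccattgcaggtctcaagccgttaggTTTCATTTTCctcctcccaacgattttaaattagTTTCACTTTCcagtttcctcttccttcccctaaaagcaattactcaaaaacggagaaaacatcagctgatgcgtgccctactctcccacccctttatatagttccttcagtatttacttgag
IFNB1 held 1 NFκB match and no ISRE match, CXCL10 held 2 NFκB matches and 1 ISRE match, BIRC3 and TNFAIP3 held 2 NFκB matches each, and IFIT3 held 2 ISRE matches on the opposite strand.

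A part of the NFκB list rose. Of 28 tested genes on the NFκB list, 5 were called in both fits and 24 had a positive log2 fold change, with a median of 0.82. Over all tested genes 8690 of 17335 were positive, and 0.738% were called higher with 6 libraries and 1.99% with 4. BIRC3, the gene of the ubiquitin ligase cIAP2, was at 30.2 and 35.4 CPM in CD44v6-OE, against 0.855 and 0.743 CPM in parental cells (log2 fold change 5.35 ± 0.41, adjusted p = 0.00106). TNFAIP3, which encodes the feedback inhibitor A20, was at 28.2 and 24.2 CPM in CD44v6-OE and at 3.19 and 3.07 CPM in parental cells (3.06 ± 0.40, adjusted p = 0.0139). NFKBIZ, the gene of the nuclear protein IκBζ, was at 12.5 and 12.3 CPM in CD44v6-OE, against 1.94 and 1.97 CPM in parental cells (2.66 ± 0.33, adjusted p = 0.0127). The groups were far apart in each of these genes relative to the gaps within a pair. The signalling adaptor TRAF1, at 6.67 and 6.10 CPM in CD44v6-OE and at 1.84 and 1.37 CPM in parental cells, rose by 1.99 ± 0.28 (adjusted p = 0.0181). TNFRSF9, the costimulatory receptor 4-1BB, was at 3.03 and 3.11 CPM in CD44v6-OE and at 0.095 and 0.0586 CPM in parental cells (5.27 ± 1.05, adjusted p = 0.0772).

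Of the 5 subunits, 0 were called with 6 libraries by edgeR, 3 had an unadjusted p under 0.05 and DESeq2 called 0. As 0.738% of all tested genes were called higher by edgeR, 0 of 5 lies near that share. All 5 had a positive log2 fold change, with a median of 0.72, and 3 passed the adjusted p with the 4 libraries at log2 fold changes below the threshold. RELB came nearest, at 49.4 and 41.5 CPM in CD44v6-OE and at 16.6 and 15.8 CPM in parental cells (log2 fold change 1.49 ± 0.33, adjusted p = 0.111). RELA, at 182 and 163 CPM in CD44v6-OE, overlapped the parental 149 and 176 CPM. TNFAIP2, at 168 and 160 CPM in CD44v6-OE and at 75.5 and 62.9 CPM in parental cells, passed the adjusted p (0.0315) and not the fold threshold (1.25 ± 0.20). NFKBIA, the gene of IκBα, was at 115 and 109 CPM in CD44v6-OE, against 45.9 and 49.0 CPM in parental cells (1.24 ± 0.34, adjusted p = 0.220). BIRC3 was the only one of the 5 calls kept without parental 1 or without parental 2, and 3 were kept without CD44v6-OE 1 or 2 (BIRC3, TNFAIP3 and NFKBIZ without CD44v6-OE 1). With the 4 compared libraries all 5 were kept under each of these omissions.

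A part of the chemokine and cytokine list rose. Of 18 tested chemokines and cytokines, 6 were called with 6 libraries, 9 with the 4 compared and 8 by DESeq2, and 5 of the 6 were CXC chemokines. The share called higher over all tested genes was 0.738% with 6 libraries and 1.99% with 4. CXCL10, a ligand of CXCR3 on T cells, was at 2.80 and 2.88 CPM in CD44v6-OE, against 0.038 and 0 CPM in parental cells, a ratio of 148 with a 95% counting interval of 26.2 to 5882 (adjusted p = 0.011). CXCL11, another CXCR3 ligand, was at 0.934 and 1.16 CPM in CD44v6-OE and at 0 and 0.0391 CPM in parental cells, a ratio of 54.9 (9.45 to 2206, adjusted p = 0.0446). CCL20, the ligand of CCR6, was at 0.839 and 0.954 CPM in CD44v6-OE and at 0 and 0.0391 CPM in parental cells, a ratio of 47.0 (8.05 to 1896, adjusted p = 0.0275). The parental pair held 2 counts in all for each of these genes, so their ratios have wide intervals.

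Among the neutrophil-attracting ligands of CXCR2, CXCL8, CXCL1 and CXCL2 were called. CXCL8, the gene of interleukin 8, was at 8.77 and 10.5 CPM in CD44v6-OE, against 0.228 and 0.449 CPM in parental cells (log2 fold change 4.82 ± 0.49, adjusted p = 0.005). CXCL1 was at 17.5 and 17.2 CPM in CD44v6-OE and at 0.304 and 0.782 CPM in parental cells (5.00 ± 0.82, adjusted p = 0.0716), and CXCL2 at 3.11 and 3.54 CPM in CD44v6-OE and at 0.570 and 0.430 CPM in parental cells (2.72 ± 0.50, adjusted p = 0.0461). CXCL1, CXCL2 and CXCL3 are similar in sequence, so the split of reads among them is uncertain. CCL5 was at 40.0 and 36.7 CPM in CD44v6-OE and at 0 and 0.860 CPM in parental cells and was called in neither fit (adjusted p = 0.289 and, with 4 libraries, 0.109). Without parental 1 or CD44v6-OE 1 or 2, 2 of the 6 calls were kept, and without parental 2 none was (highest adjusted p 0.438), while 7 or 8 of the 9 calls with 4 libraries were kept under each omission.

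**Figure D3:**
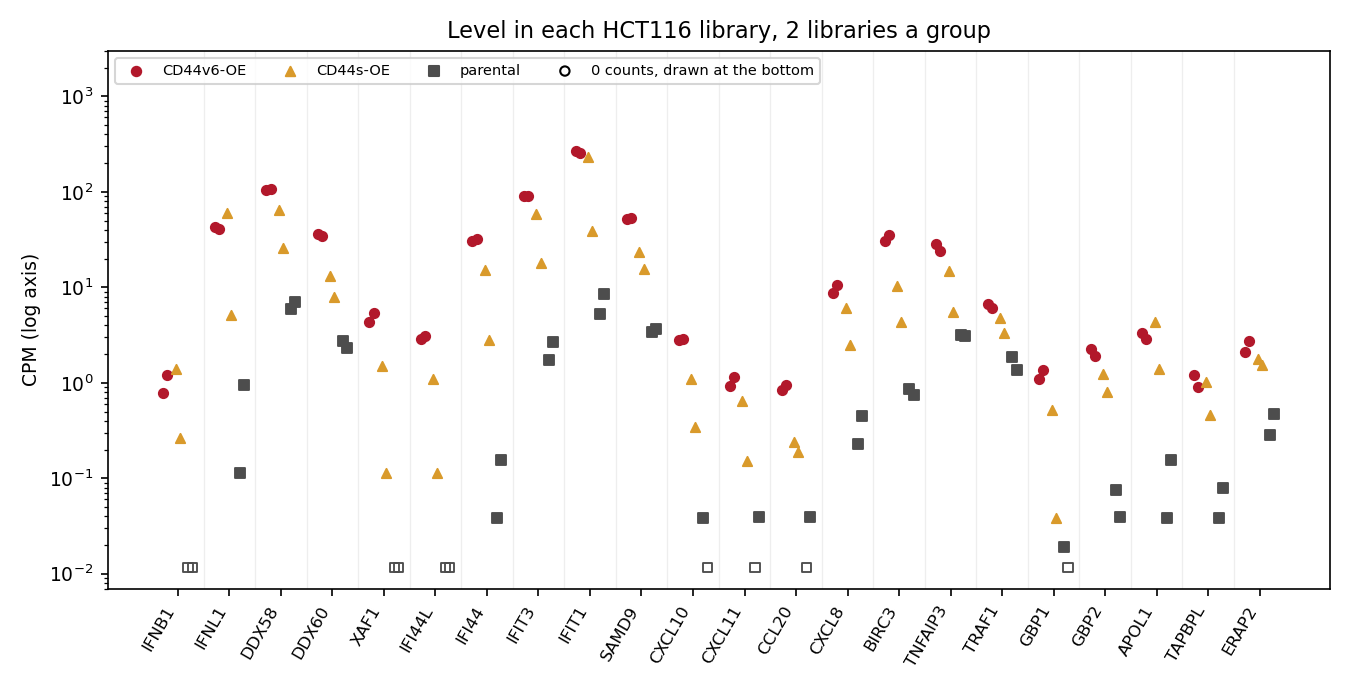
CPM (y axis, log scale) of 22 interferon, NFκB, chemokine and antigen presentation genes in each HCT116 library, with red circles for CD44v6-OE, orange triangles for CD44s-OE and grey squares for parental cells, and open symbols at the bottom for 0 counts. The genes shown were picked from those higher in CD44v6-OE. For genes such as IFIT1 the CD44s-OE libraries (231 and 39.2 CPM) are spread far wider than the CD44v6-OE libraries (265 and 255 CPM).

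Guanylate-binding proteins are GTPases of cell-autonomous immunity that interferon γ induces, and apolipoproteins L are lipid-binding proteins found with them. On a list of 15 tested genes of both families and their regulators, 6 were called with 6 libraries and 8 with 4. All tested genes had 0.738% called higher with 6 libraries and 1.99% with 4. The list had a median log2 fold change of 1.97 with genes at 0 counts set to their bound (2.02 as fitted). GBP2 was at 2.23 and 1.89 CPM in CD44v6-OE, against 0.076 and 0.0391 CPM in parental cells (5.10 ± 0.53, adjusted p = 0.005). GBP4, at 1.18 and 1.33 CPM in CD44v6-OE and at 0 and 0 CPM in parental cells, was at least 10.9-fold higher (adjusted p = 0.0385), and GBP5, at 0.305 and 0.599 CPM in CD44v6-OE and at 0 and 0 CPM in parental cells, at least 3.91-fold (adjusted p = 0.0522). GBP1 was at 1.09 and 1.35 CPM in CD44v6-OE and at 0.019 and 0 CPM in parental cells, a ratio of 63.7 in read pairs (95% counting interval 11.0 to 2554, adjusted p = 0.0522). Of the 5 tested members of the GBP family, 4 were called with 6 libraries and 5 with 4. APOL1, a component of trypanolytic lipoprotein, was at 3.36 and 2.86 CPM in CD44v6-OE and at 0.038 and 0.156 CPM in parental cells (4.97 ± 0.69, adjusted p = 0.0171), and APOL3 at 3.51 and 3.07 CPM in CD44v6-OE and at 0.019 and 0.0391 CPM in parental cells, a ratio of 85.2 in read pairs (23.2 to 709, adjusted p = 0.0537).

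IRF1, the transcription factor that drives GBP genes, was at 59.6 and 56.9 CPM in CD44v6-OE, 87.5 and 21.9 CPM in CD44s-OE and 24.9 and 25.5 CPM in parental cells, and was not called (log2 fold change 1.21 ± 0.64, adjusted p = 0.585). SOCS3, the feedback inhibitor of cytokine receptors, was at 17.6 and 16.9 CPM in CD44v6-OE and at 27.5 and 29.8 CPM in parental cells (−0.73 ± 0.24, adjusted p = 0.274). Of the 6 calls for GBP and APOL genes, GBP2 alone was kept without parental 1, none without parental 2 (highest adjusted p 0.538) and 2 without CD44v6-OE 1 or 2. With the 4 compared libraries, 7 or 8 of 8 were kept under each omission.

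Genes of MHC class I presentation all leaned the same way, and few passed the fold threshold. All 18 tested genes had a positive log2 fold change, with a median of 0.93, and 3 were called with 6 libraries, 5 with 4 and 2 by DESeq2. Positive values made up 8690 of 17335 over all tested genes, and 0.738% were called higher with 6 libraries and 1.99% with 4. TAPBPL, a peptide editor for class I molecules, was at 1.20 and 0.898 CPM in CD44v6-OE, against 0.038 and 0.0782 CPM in parental cells (4.12 ± 0.67, adjusted p = 0.0301). ERAP2, a peptidase that trims peptides in the endoplasmic reticulum, was at 2.12 and 2.77 CPM in CD44v6-OE and at 0.285 and 0.469 CPM in parental cells (2.69 ± 0.39, adjusted p = 0.0181). PSMB10, a catalytic subunit of the immunoproteasome, was at 5.55 and 4.00 CPM in CD44v6-OE and at 1.71 and 1.64 CPM in parental cells (1.51 ± 0.30, adjusted p = 0.0577). The chains themselves were abundant in both groups. B2M, the light chain, was at 347 and 402 CPM in CD44v6-OE and at 146 and 148 CPM in parental cells (1.35 ± 0.31, adjusted p = 0.132), and HLA-B at 403 and 408 CPM in CD44v6-OE and at 204 and 171 CPM in parental cells (1.11 ± 0.57, adjusted p = 0.570). HLA genes are polymorphic paralogs, so their read assignment is uncertain. Of the 3 calls, ERAP2 alone was kept without CD44v6-OE 1 and none without CD44v6-OE 2, parental 1 or parental 2 (highest adjusted p 0.208 to 0.589).

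Other immune and death ligands included a few strong changes. CFB, complement factor B of the alternative pathway, was at 5.38 and 5.24 CPM in CD44v6-OE, against 0 and 0.0195 CPM in parental cells, a ratio of 275 in read pairs with a 95% counting interval of 49.0 to 10913 (adjusted p = 0.0139). C3, the central complement component, was at 5.97 and 5.48 CPM in CD44v6-OE and at 0.741 and 0.743 CPM in parental cells (log2 fold change 2.94 ± 0.50, adjusted p = 0.0342). These were the 2 calls among 12 tested complement genes, where 0.738% of all tested genes were called higher with 6 libraries and 1.99% with 4. TNFSF10, the gene of the death ligand TRAIL, was at 0.667 and 0.636 CPM in CD44v6-OE and at 0.038 and 0 CPM in parental cells, a ratio of 34.3 (5.76 to 1393, adjusted p = 0.0468), and with BIRC3 it made 2 calls among 18 genes of the TRAIL and death receptor pathway, whose median log2 fold change was 0.17. CASP4, an inflammatory caspase, passed the adjusted p (0.0139) at a log2 fold change of 1.21 ± 0.16. CFB was still called without CD44v6-OE 1 or 2 and C3 under none of the omissions. Neither was called without parental 1 or parental 2, nor was TNFSF10 under any omission, and all 3 calls were kept throughout with the 4 compared libraries.

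Single keratin and matrix genes were called. The background was 0.738% of all tested genes called higher with 6 libraries, and 1.99% higher and 0.114% lower with 4. KRT17, a keratin of basal and stressed epithelia, was at 12.7 and 13.4 CPM in CD44v6-OE, against 0.228 and 0.274 CPM in parental cells (log2 fold change 5.69 ± 0.50, adjusted p = 0.00225). It was the only one of 18 tested keratins called with 6 libraries and was lost only without parental 2 (adjusted p = 0.101). The pseudogenes KRT16P2, KRT16P6 and KRT17P4, which resemble KRT16 and KRT17 and may share their reads, were called too. With the 4 compared libraries, 5 keratins were higher and KRT5 was lower, and 2 to 6 of these 6 calls were kept when 1 library was left out, the fewest without CD44v6-OE 1. KRT16 was at 2.29 and 1.44 CPM in CD44v6-OE and at 0.627 and 0.235 CPM in parental cells (adjusted p = 0.123 and, with 4 libraries, 0.0147), and KRT5 at 0.229 and 0.374 CPM in CD44v6-OE and at 0.722 and 2.07 CPM in parental cells (0.143 and 0.031).

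Of 33 tested collagens, laminins and matricellular genes, 3 collagens were called with 6 libraries. Among all tested genes 0.738% were called higher with 6 libraries and 1.99% with 4. COL17A1, the transmembrane collagen of hemidesmosomes, was at 12.5 and 10.7 CPM in CD44v6-OE, against 4.22 and 2.35 CPM in parental cells (log2 fold change 1.82 ± 0.28, adjusted p = 0.0248). COL7A1, the collagen of anchoring fibrils, was at 10.3 and 10.1 CPM in CD44v6-OE and at 2.87 and 2.21 CPM in parental cells (2.00 ± 0.34, adjusted p = 0.0342). COL3A1, a fibrillar collagen, was at 0.839 and 1.01 CPM in CD44v6-OE, 7.67 and 20.1 CPM in CD44s-OE and 0.114 and 0.117 CPM in parental cells (2.97 ± 0.61, adjusted p = 0.0644). Both CD44s-OE libraries were thus above the CD44v6-OE pair for COL3A1. The laminin genes LAMA3 and LAMB3 passed the adjusted p at log2 fold changes of 1.28 and 1.02, below the fold threshold. PLAUR, the urokinase receptor, was called only with the 4 libraries, at 1.73. Only COL17A1 was kept without parental 1, and none of the 3 collagens without parental 2 or CD44v6-OE 1 or 2 (highest adjusted p 0.187 to 0.486), while 4 or 5 of the 5 calls with 4 libraries were kept. COL3A1 also stood on the fibroblast marker list, whose summed level was 35.2 and 31.8 CPM in CD44v6-OE and 19.3 and 13.8 CPM in parental cells with LUM at 0, and its part in the collagen calls was not tested.

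Of 41 tested genes of epithelial adhesion and polarity, 0 were called by edgeR with 6 or 4 libraries or by DESeq2, 4 had an unadjusted p under 0.05, and the median log2 fold change was −0.05. Over all tested genes 0.738% were called higher and 0.0404% lower with 6 libraries (1.99% and 0.114% with 4), so 0 of 41 lies near the share in the background. CDH1, the gene of E-cadherin, was at 50.4 and 48.7 CPM in CD44v6-OE and at 65.4 and 46.8 CPM in parental cells, so the groups overlapped. SNAI2, the EMT transcription factor SLUG, was the only call with 6 libraries among 21 EMT factors and mesenchymal genes, of which 2 were called with 4 libraries and 2 by DESeq2. It was at 2.42 and 2.69 CPM in CD44v6-OE, against 0.228 and 0.586 CPM in parental cells (2.65 ± 0.44, adjusted p = 0.0342), and the call was lost when any of the 4 libraries was left out (adjusted p = 0.138 to 0.208). VIM, the gene of vimentin, was at 8.47 and 7.15 CPM in CD44v6-OE and at 4.6 and 6.39 CPM in parental cells (0.51 ± 0.32, adjusted p = 0.607). Among 11 integrins 0 were called in either fit or by DESeq2, with 2 at an unadjusted p under 0.05, and among 16 genes of CD44, hyaluronan and their membrane partners likewise 0, with 3. Over all 17335 tested genes 1933 had an unadjusted p under 0.05, and 0 calls in lists of these sizes lie near the background share. HAS3, a hyaluronan synthase, passed the adjusted p (0.0315) at a log2 fold change of 1.21 ± 0.20, as did the hyaluronidase gene HYAL1 (0.0522) at 1.29 ± 0.25.

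The study names 12 genes for these libraries, and 0 of them were called with 6 libraries by edgeR or by DESeq2, with 4 at an unadjusted p under 0.05. With 0.738% of all tested genes called higher and 0.0404% lower, 0 of 12 lies near the background share. ZEB1, an EMT transcription factor, was at 3.64 and 3.61 CPM in CD44v6-OE, 16.3 and 10.1 CPM in CD44s-OE and 0.931 and 2.13 CPM in parental cells (1.24 ± 0.38, adjusted p = 0.236). IL32, a cytokine gene, was at 10.6 and 10.4 CPM in CD44v6-OE and at 4.54 and 6.31 CPM in parental cells (0.96 ± 0.24, adjusted p = 0.149). Both genes were higher in each CD44v6-OE library than in either parental one, as were 4706 of all 17335 tested genes, so this separation is common. CSF2, the gene of GM-CSF, was at 0.343 and 0.262 CPM in CD44v6-OE and at 0.038 and 0.0782 CPM in parental cells, and it was called with the 4 libraries (adjusted p = 0.0991) and under none of the omissions from them. EPCAM, the splicing regulator ESRP1, MAL2, NUMB, SPARC, VIM, CDH1 and CD44 had log2 fold changes from −0.36 to 0.51 with adjusted p-values of 0.457 or more. SPARC was at 0.534 and 0.505 CPM in CD44v6-OE and at 0.266 and 1.07 CPM in parental cells, and its sign turned positive without parental 2 (0.96).

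Metabolic, stress and differentiation genes gave isolated calls, where 0.738% of all tested genes were called higher with 6 libraries. By that share, 1 call in the list of 41 genes below is no result about the list. Of 16 tested genes of intestinal differentiation, 3 were called. CEACAM1, an adhesion molecule of differentiated epithelium, was at 8.71 and 7.59 CPM in CD44v6-OE, against 1.03 and 0.938 CPM in parental cells (log2 fold change 3.05 ± 0.32, adjusted p = 0.005). DPP4, a brush border peptidase, was at 19.1 and 18.3 CPM in CD44v6-OE and at 5.80 and 4.67 CPM in parental cells (1.83 ± 0.19, adjusted p = 0.005). DPEP1, a dipeptidase, was at 18.9 and 20.7 CPM in CD44v6-OE, 67.2 and 24.2 CPM in CD44s-OE and 1.20 and 2.81 CPM in parental cells (3.30 ± 0.60, adjusted p = 0.0927). CEACAM1 and DPP4 were kept without parental 1, 2 of the 3 calls were kept without CD44v6-OE 1 or 2, and none was without parental 2 (highest adjusted p 0.228). CA9, a carbonic anhydrase induced by hypoxia, was the 1 call among 41 genes of sterol synthesis, glycolysis and stress, at 2.10 and 1.95 CPM in CD44v6-OE and at 0.494 and 0.117 CPM in parental cells (2.71 ± 0.55, adjusted p = 0.0629), and it was kept only without parental 1.

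Regulators of G protein signalling, which shorten signalling by heterotrimeric G proteins, had 2 calls among 11 tested genes. With 6 libraries 0.738% of all tested genes were called higher. RGS5 was at 4.80 and 4.90 CPM in CD44v6-OE, 13.5 and 20.7 CPM in CD44s-OE and 1.5 and 1.64 CPM in parental cells (log2 fold change over parental cells 1.63 ± 0.26, adjusted p = 0.0275). RGS4 was at 2.17 and 1.55 CPM in CD44v6-OE, 3.76 and 4.93 CPM in CD44s-OE and 0.266 and 0.274 CPM in parental cells (2.78 ± 0.37, adjusted p = 0.0139). For both genes the CD44v6-OE libraries lay between the parental and the CD44s-OE ones. RGS4 was still called without CD44v6-OE 2, and neither was under the other omissions (highest adjusted p 0.177 to 0.232).

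Some of the clearest changes lay outside the lists. PLAAT4, a phospholipase-like gene induced by retinoids and interferon, was at 2.38 and 2.92 CPM in CD44v6-OE, against 0.019 and 0 CPM in parental cells, a ratio of 138 in read pairs with a 95% counting interval of 24.4 to 5495 (adjusted p = 0.00225). ZBTB32, a transcriptional repressor of lymphocytes, was at 2.78 and 3.24 CPM in CD44v6-OE and at 0.019 and 0.0195 CPM in parental cells, a ratio of 78.4 in read pairs (21.3 to 653, adjusted p = 0.00933). ZBTB32 is a gene of blood cells, and the 9 leukocyte markers summed to 1.45 and 2.04 CPM in CD44v6-OE, against 0.95 and 0.72 CPM in parental cells. Most of that sum was ITGAM, with 46 and 76 counts in CD44v6-OE and 30 and 14 in parental cells, while PTPRC, CD3E, MS4A1 and NKG7 had 0 counts, and the part of leukocytes in the ZBTB32 call was not tested. ZBTB32 lost its call without parental 1 or parental 2 (adjusted p = 0.113 and 0.191), and PLAAT4 kept it under each omission.

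The following genes were chosen after their values were seen, as strong calls at higher levels. TMEM200A, a membrane protein of unsettled function, was at 31.2 and 30.5 CPM in CD44v6-OE, against 9.60 and 10.5 CPM in parental cells (log2 fold change 1.62 ± 0.15, adjusted p = 0.00279). PMAIP1, the gene of the pro-apoptotic protein NOXA, was at 69.1 and 73.1 CPM in CD44v6-OE and at 23.0 and 26.3 CPM in parental cells (1.53 ± 0.15, adjusted p = 0.00412). MXD1, a partner of MAX that opposes MYC, was at 18.8 and 19.6 CPM in CD44v6-OE and at 3.50 and 2.07 CPM in parental cells (2.78 ± 0.37, adjusted p = 0.0139). FGF2, a growth factor gene, was at 14.1 and 16 CPM in CD44v6-OE, against 3.19 and 3.48 CPM in parental cells (2.18 ± 0.26, adjusted p = 0.00933). In these 4 genes the gap between groups was many times that within a pair. NT5E, the gene of the adenosine-producing surface enzyme CD73, was at 134 and 140 CPM in CD44v6-OE and at 20.5 and 42.2 CPM in parental cells (2.12 ± 0.28, adjusted p = 0.0167), and lost its call with the 4 libraries (adjusted p = 0.113). IL15, a cytokine gene, was called at 2.57 ± 0.46 (adjusted p = 0.043), LGALS9, the gene of galectin 9 with close copies elsewhere in the genome, at 3.21 ± 0.44 (adjusted p = 0.0167), and RAET1L, a ligand of the NKG2D receptor, at 3.33 ± 0.48 (adjusted p = 0.0181). Leaving out parental 2 ended the calls of MXD1, FGF2, IL15, LGALS9 and RAET1L (0.18 to 0.362), leaving out parental 1 those of FGF2, IL15, LGALS9 and RAET1L (0.113 to 0.245), and leaving out CD44v6-OE 2 those of NT5E (0.1001) and IL15 (0.208). Without CD44v6-OE 1 IL15 was lost (0.238), and PMAIP1 dropped below the fold threshold without parental 1 or CD44v6-OE 2.

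Of the 7 genes that fell, 5 lie on the Y chromosome. DDX3Y, an RNA helicase, was at 0.515 and 0.412 CPM in CD44v6-OE, against 5.70 and 4.71 CPM in parental cells (log2 fold change −3.48 ± 0.48, adjusted p = 0.0169). KDM5D, a histone demethylase, was at 0.229 and 0.711 CPM in CD44v6-OE and at 4.83 and 2.97 CPM in parental cells (−3.04 ± 0.53, adjusted p = 0.0385). EIF1AY, a translation initiation factor, was at 0.305 and 0.112 CPM in CD44v6-OE and at 2.85 and 3.19 CPM in parental cells (−3.84 ± 0.60, adjusted p = 0.0266). TXLNGY and TTTY14, a pseudogene and a long noncoding RNA, were called lower as well, at −2.88 and −4.42. Of 17 tested Y genes, 11 had a log2 fold change from −2.02 to −4.77. All 11 were called lower with the 4 compared libraries, against 0.114% of all genes tested in that fit. These 11 summed to 2.29 and 2.92 CPM in CD44v6-OE, 3.38 and 19.8 CPM in CD44s-OE and 39.3 and 33.1 CPM in parental cells, so CD44s-OE 2 held much more than CD44s-OE 1. Reads of these genes can be confused with those of their X-linked copies. The median log2 fold change was −3.04 over the Y genes and lay between −0.04 and 0.07 for every other chromosome. EIF1AY alone of the 5 was kept without CD44v6-OE 1, KDM5D alone without CD44v6-OE 2 and none without parental 1 or parental 2 (highest adjusted p 0.325 to 0.703), while 8 to 11 of the 11 were kept with 4 libraries.

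The other 2 genes that fell are autosomal or X-linked and scarce. With 6 libraries 0.0404% of all tested genes were called lower. APCDD1, a secreted inhibitor of Wnt signalling, was at 0.0191 and 0.0187 CPM in CD44v6-OE, against 0.418 and 0.469 CPM in parental cells (log2 fold change −4.39 ± 0.88, adjusted p = 0.0602). It was the 1 call among 26 Wnt and Notch target genes, whose median was −0.10, and was lost when any of the 4 libraries was left out of the 6-library fit (adjusted p = 0.202 to 0.489). GJB1, the gene of the gap junction protein connexin 32, was at 0 and 0 CPM in CD44v6-OE and at 0.209 and 0.586 CPM in parental cells, at least 3.51-fold lower (adjusted p = 0.0857), and its call was lost in the same way (0.160 to 0.530).

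Proliferation and respiration genes leaned lower by small amounts. Of 54 tested cell cycle genes, 0 were called by edgeR with 6 or 4 libraries or by DESeq2, 20 had an unadjusted p under 0.05, 49 had a negative log2 fold change and the median was −0.26. All 17 S phase genes were negative. With the 4 compared libraries, 20 of the 54 passed the adjusted p on the lower side, each above a log2 fold change of −1.5. MCM4, a subunit of the replicative helicase, was at 281 and 278 CPM in CD44v6-OE, against 355 and 418 CPM in parental cells (−0.47 ± 0.14, adjusted p = 0.220 and, with 4 libraries, 0.0159). RRM1, the large subunit of ribonucleotide reductase, was at 114 and 120 CPM in CD44v6-OE and at 166 and 159 CPM in parental cells (−0.47 ± 0.15, adjusted p = 0.248 and, with 4 libraries, 0.00987). MKI67, the proliferation marker, was at 588 and 524 CPM in CD44v6-OE and at 716 and 603 CPM in parental cells (adjusted p = 0.656). MCM4 and RRM1 were chosen after their values were seen. Nuclear genes of oxidative phosphorylation had 25 of 27 negative values and a median of −0.16, with 0 called in either fit or by DESeq2 and 0 at an unadjusted p under 0.05. Over all tested genes 8645 of 17335 had a negative log2 fold change and 1933 an unadjusted p under 0.05. Since 0.0404% of them were called lower, 0 calls in these lists lie near that share.

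Further lists gave 0 calls by edgeR with 6 libraries and by DESeq2, unless stated. Such counts lie near the background, where 0.738% of genes were called higher, 0.0404% lower and 1933 of 17335 had an unadjusted p under 0.05. The 13 mitochondrially encoded genes had a median log2 fold change of 0.18 and 0 genes at an unadjusted p under 0.05, and the 25 splicing regulators a median of −0.14 with 4. The 20 glutathione and NRF2 targets had a median of −0.11 with 3 at that p, and the 20 YAP and TGFβ targets a median of −0.09 with 7 and 1 call by DESeq2. The 30 genes of ERK output and EGFR ligands had a median of 0.32 with 8 at that p. In that list all 12 immediate early genes had positive values, and EGR2, a zinc finger factor, was called only with the 4 libraries, at 4.10 and 3.52 CPM in CD44v6-OE and at 1.06 and 0.919 CPM in parental cells.

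The CD44v6-OE cells were also set against HCT116 CD44s-OE cells, to see which of the 135 genes differed between isoforms. Over all genes, 28 were called higher in CD44v6-OE than in CD44s-OE (0.162%) and 22 lower (0.127%). Of the 128 genes that rose over parental cells, 4 were also called higher than in CD44s-OE. They were CD44-AS1, at 0 counts in both CD44s-OE libraries, BIRC3 by 2.16, DDX60 by 1.76 and MXD1 by 1.74 on the log2 scale (adjusted p = 0.015, 0.0364, 0.0221 and 0.0888). COL3A1 and RGS5 were called lower than in CD44s-OE, at −3.90 and −1.82. For the other 122 a difference between the isoforms was not called. BIRC3 was at 10.3 and 4.36 CPM in CD44s-OE and DDX60 at 13 and 7.87 CPM, below both CD44v6-OE values. Over parental cells the 128 genes had a median log2 fold change of 2.88 in CD44v6-OE and of 2.66 in CD44s-OE, and both values use the same parental libraries. The 128 were picked by high values in the CD44v6-OE libraries, which enter both comparisons. That choice favours the 4 calls over CD44s-OE and the larger median in CD44v6-OE, so neither is a separate result. Without 1 HCT116 library the number of genes that differed between the isoforms ranged from 7, without CD44v6-OE 2, to 326, without CD44s-OE 1.

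SW480, which shares no library with HCT116, was used to ask whether the same genes moved there. In SW480, 71 genes were called higher in CD44v6-OE than in parental cells (0.405% of 17539) and 2 lower (0.0114%). Of the 128 HCT116 genes, 84 were tested in SW480, and 62 of these (73.8%) had a positive log2 fold change there, against 47.3% of the 15516 genes tested in both lines. Their median in SW480 was 0.53. In both lines 5 were called higher, namely CD44-AS1, SAMD9, TNFSF10, DPEP1 and DEPP1. They made 3.91% of the 128 and 7.04% of the 71. These shares are low counts of agreement, since 84 of the 128 and 47 of the 71 were tested in both lines. SAMD9 had a log2 fold change of 2.65 in SW480 against 3.90 in HCT116, and DPEP1 3.99 against 3.30. Across the 15516 genes, which are not independent, the correlation of the fold changes was 0.139. The difference between the lines, tested over 19567 genes with no minimum fold, was called higher in HCT116 for 39 genes (0.199%) and lower for 41 (0.21%).

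Of the 128 genes, 20 rose more in HCT116 than in SW480 by that test. The test reuses the HCT116 libraries by which the 128 were picked, which favours a larger rise in HCT116 in advance. The 20 are therefore no separate result. IFIT3 had a log2 fold change of 5.36 in HCT116 and 0.07 in SW480 (difference adjusted p = 0.0224). DDX58 had 4.05 in HCT116 and 0.23 in SW480 (0.00861), and KRT17 5.69 in HCT116 and −0.86 in SW480 (0.00287). BIRC3 had 5.35 in HCT116 and 1.46 in SW480 (0.0154). Of 41 interferon-list genes tested in SW480, 2 were called higher there and the median was 0.19, and the difference between lines was called for 2 of 47. The numbers of called genes rest on single SW480 libraries as well, since the SW480 comparison gave 13 genes without SW480 CD44v6-OE 1 and 344 without SW480 parental 1, and the difference 17 without SW480 CD44v6-OE 1 and 209 without SW480 parental 2.

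**Figure D4:**
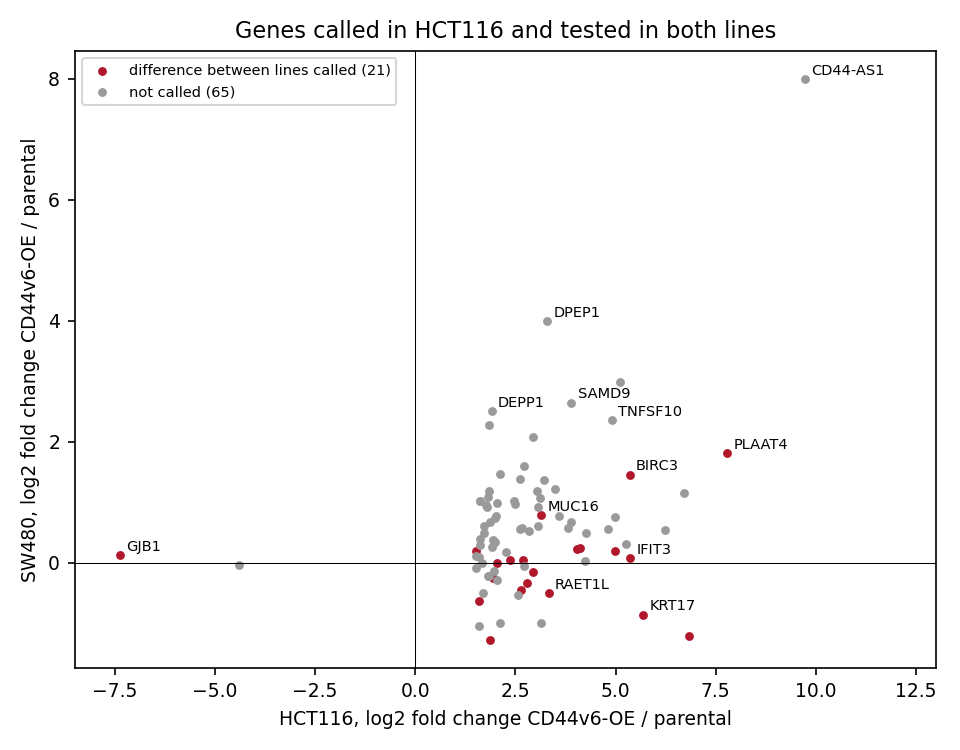
Log2 fold change of CD44v6-OE over parental cells in HCT116 (x axis) and SW480 (y axis) for the 86 genes called in HCT116 and tested in both lines, in red where the difference between the lines was called (21) and in grey where it was not (65). KRT17 and IFIT3 lie far to the right and near or below 0 in SW480, whereas DPEP1, SAMD9, TNFSF10 and CD44-AS1 are high in both.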

How the data were processed

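Expression was measured by paired-end sequencing of polyA RNA in 12 libraries, of which 4 were compared. The authors trimmed reads with SOAPnuke, aligned them to hg19 with STAR 2.7.9a and counted reads per GENCODE gene by strand with featureCounts (Subread 2.0.3), and the deposited raw counts (62426 genes) were analysed here. Each read of a pair was counted, so 6 counts stand for 3 read pairs. A deposited table of variance-stabilised log2 values, made by the authors with DESeq2 1.30.1, supplied gene symbols only.

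Counts were tested with edgeR 4.0.16 (R 4.3.3; TMM normalisation, filterByExpr, robust quasi-likelihood fit, Benjamini-Hochberg adjustment) in 1 fit of the 6 HCT116 libraries, and, as an alternative, of the 4 compared libraries. SW480 was fitted separately, and the difference between lines over all 12. CPM are TMM-normalised except for CD44, its locus and the depth. Ratios of genes with 1 to 3 parental counts were taken in read pairs (counts of each library divided by 2 and rounded up) and carry exact 95% counting intervals, which cover counting error only. Scripts were tested on simulated counts. Genes named were the 20 called higher with the largest fold change at a mean of at least 1 CPM, all called lower, called list members (at most 6 a list), the genes the study names, and those nearest the thresholds. The comparison, genes and lists were chosen with earlier results of these data known. Alternatives covered normalisation, low-count filters, robust estimation, DESeq2 1.42.0, the libraries fitted, a replicate block, thresholds and leaving out each library. Some genes are not reported here. The promoter of DDX58 was looked up as RIGI.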

Additional observations from a re-analysis of the deposited data

Results flagged for a closer look

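The following genes were picked out because the effect of CD44v6-OE over parental cells differed between HCT116 and SW480 by an interaction test over both lines (edgeR quasi-likelihood, adjusted p under 0.1). Values are the log2 fold change in HCT116 minus that in SW480. Among immune genes the difference was 5.26 for IFIT3, 3.80 for DDX58, 4.74 for APOL1, 3.85 for TAPBPL and 2.61 for ERAP2, with SW480 values between 0.05 and 0.24. RAET1L differed by 3.81, PLAAT4 by 5.93, and BIRC3 by 3.85, and the last of these had positive values of 5.35 in HCT116 and 1.46 in SW480.

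Epithelial and signalling genes made up the rest. KRT17 had the lowest adjusted p (0.00287) and a difference of 6.52, KRT23 differed by 1.36, MUC16, a membrane mucin, by 2.33 (adjusted p = 0.0968) and the EMT factor SNAI2 by 3.06. The kinase gene MAP3K8 differed by 2.16, the co-receptor gene NRP1 by 3.12, MXD1 by 3.09, PMAIP1 by 1.29 and the long noncoding RNA MIR22HG by 2.18. KRT23 was below the fold threshold in HCT116 (1.11). GJB1 went the other way, with a fitted difference of −7.45 that rests on 0 counts in both HCT116 CD44v6-OE libraries. In SW480 the values of KRT17, NRP1, RAET1L, MXD1, SNAI2, MAP3K8, MIR22HG and KRT23 were negative, from −0.26 to −1.27, and none of these was called there.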

How the results depend on the processing

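The 135 genes called over parental cells became 283 with no filter on low counts, 208 with DESeq2, 352 with the 4 compared libraries, 83 at an adjusted p under 0.05 and 266 with no minimum fold. With the 4 libraries, DESeq2 gave 237 and a replicate block 361, and these settings and the omissions from the 4-library fit were added after seeing the data. The other settings gave 99 to 184. When 1 library was left out the count ranged from 7 (parental 2) to 369 (CD44s-OE 2) with 6 libraries and from 187 (CD44v6-OE 1) to 742 (parental 1) with 4, with 217 without CD44v6-OE 2 and 389 without parental 2. With 1 of 4 libraries left out, the lone library is assumed to vary like the other group's pair. The gene lists held 45 calls, against 89 with 4 libraries and 73 with DESeq2. Genes that differed from CD44s-OE (50) became 81 with DESeq2 and 7 to 326 without 1 library, the SW480 genes (73) 162 and 13 to 344, and the difference between lines (80 genes) 343 and 17 to 256. The cause of these shifts was not tested.

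Whether the replicate numbers pair the HCT116 libraries is not settled. Deviations of same-numbered libraries correlated at 0.067 between CD44v6-OE and parental cells. The correlation was 0.255 between CD44v6-OE and CD44s-OE and 0.090 between parental cells and CD44s-OE. With the replicate number as a block 169 genes were called over parental cells, 69 against CD44s-OE, 70 in SW480 and 102 for the difference between lines. Of the 135 genes 127 were still called under the block. Among the other 8 were XAF1, IFI44, IFIT3, CXCL1, DPEP1 and ANO9 (adjusted p = 0.131 to 0.376) and PSMB10, at a log2 fold change of 1.49. With 4 libraries and the block, IFNL1 and IFNL2 were not called (adjusted p = 0.212 and 0.199).

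With TMM in place of the total count the log2 fold change of CD44 was −0.095. Uncalled genes changed sign when 1 library was left out of the 6-library fit. CDH1 ranged from −0.40 (without parental 2) to 0.080 (parental 1), SPARC from −1.05 (parental 1) to 0.96 (parental 2) and MAL2 from −0.049 (CD44v6-OE 2) to 0.14 (CD44v6-OE 1), with −0.0058 without parental 2. With 4 libraries the signs turned to 0.080 for CDH1 (parental 1), 0.96 for SPARC (parental 2) and −0.0070 (parental 2) and −0.047 (CD44v6-OE 2) for MAL2. Low parental counts limit most large ratios, and 2 libraries a group limit every call.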
